A study of Rattus norvegicus and Mus musculus with 10 samples.

Results

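The deposited annotation of the rat libraries holds a cluster named mDC1, and its cells are described here as type 1 conventional dendritic cells (cDC1). All cells of that cluster in all 6 rat libraries were taken, which gave 212 of 21187 annotated cells. Of these, 104 came from the dura, 69 from the choroid plexus, 20 from the pia, 13 from the cerebrospinal fluid (CSF), 3 from blood and 3 from the central nervous system (CNS). Genes are described in the 3 tissues with 20 or more of the cells, and the other libraries are given by their values only.

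The study profiled leukocytes of the compartments that border the brain, by droplet single-cell RNA sequencing. All 6 rat libraries came from naive rats of the Lewis strain, 1 library per tissue. The labels give 25 rats for the study and neither their age nor the number behind each library. Per the labels' protocol, cells of the CNS, the dura, the choroid plexus and a tissue abbreviated SDM passed a sort for CD45 that also left out cells stained by CD45 antibody given into the vein, that is, cells inside vessels. The protocol neither spells out SDM nor names the pia. CSF cells were not sorted, and blood mononuclear cells were separated on a density gradient. With 1 library per tissue no difference between tissues has a replicate check, no test was made, and every interval given (95%) covers counting error only.

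Conventional dendritic cells take up antigen, carry it on class II molecules to CD4 T cells and, in the cDC1 subset, also present antigen from dying cells on class I molecules to CD8 T cells. The subset depends on the transcription factors Irf8 and Batf3. Its surface carries Xcr1, the receptor for the chemokine Xcl1 of NK and CD8 T cells, and Clec9a, a lectin that binds actin exposed by dead cells. In rodents it also holds Tlr12, an endosomal sensor of microbial profilin.

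In dura, choroid plexus and pia the mDC1 cells were deeper than the other cells of their libraries. Their median number of transcripts counted as unique molecular identifiers (UMIs) was 4487.5 in the dura, 3328 in the choroid plexus and 1603.5 in the pia, against 1705, 1318 and 981 over all annotated cells of those libraries. Their summed UMIs were 482781, 228353 and 34484, so that 1 UMI weighs most in the pia. Of the 212 cells, 5 carried a barcode sequence that also occurs in another rat library, as did 777 of all 26301 rat barcodes. A doublet caller marked 1 of the 212 cells, in the choroid plexus, but it marked few or no barcodes at all in the pia and CNS libraries.

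By share, the choroid plexus and the dura stood first. They made up 3.04% of annotated choroid plexus cells (69 of 2272, exact Clopper-Pearson interval 2.37% to 3.83%) and 2.10% of dural cells (104 of 4953, 1.72% to 2.54%). The share was 0.495% in the pia (20 of 4039, 0.303% to 0.764%) and 0.412% in CSF (13 of 3152, 0.220% to 0.704%). In blood and CNS it was 0.0946% (3 of 3172, 0.0195% to 0.276%) and 0.0834% (3 of 3599, 0.0172% to 0.243%). The intervals of the choroid plexus and dura overlap and both lie above those of the other 4 tissues, where the intervals of neighbours in the order pia, CSF, blood and CNS overlap. The sort, which differed between tissues, and the other cells of each library enter these shares. As a share of myeloid and dendritic clusters alone, dura (3.87%, 3.18% to 4.68%) and choroid plexus (3.85%, 3.01% to 4.85%) were nearly level and the pia stayed lower (0.605%, 0.370% to 0.932%).

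The 4 markers of the subset separated the cluster from every other one. At least 1 UMI of Xcr1, Clec9a, Tlr12 or Batf3 was found in 186 of 212 mDC1 cells (87.7%, 82.5% to 91.8%), and UMIs of 2 or more of these genes in 134 (63.2%). In the other clusters the first share was at most 2.30% (microglia cluster) and was 2.20% in the cluster named myeloid1. Among 91 plasmacytoid dendritic cells (pDC) it was 0, which allows up to 3.30%. Only 8 of the other 26089 barcodes held 2 or more markers, 4 of them in myeloid1, 1 in the microglia cluster and 3 without a deposited cluster. Since the clusters were made from these genes among others, these shares describe the cluster and are no test of it.

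The label held less well in the pia. At least 1 marker was seen in 97 of 104 dural cells (93.3%), 62 of 69 choroid plexus cells (89.9%) and 11 of 20 pial cells (55%, 31.5% to 76.9%). UMIs of 2 or more markers were seen in 70 dural, 47 choroid plexus and 4 pial cells. The pial cells are also shallower. After thinning each cell to 500 UMIs the expected shares with a marker were 36.7% in the dura, 40.8% in the choroid plexus and 25.8% in the pia, against 0.630%, 0.720% and 0.851% of cells of the T cell cluster CD4 Tc in the same libraries. All 7 dural and all 7 choroid plexus cells without a marker had UMIs of Slpi, described below, as did 6 of the 9 such pial cells. Slpi was picked in these same cells after its values were seen, so this is no check of the label.

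**Figure D1:**
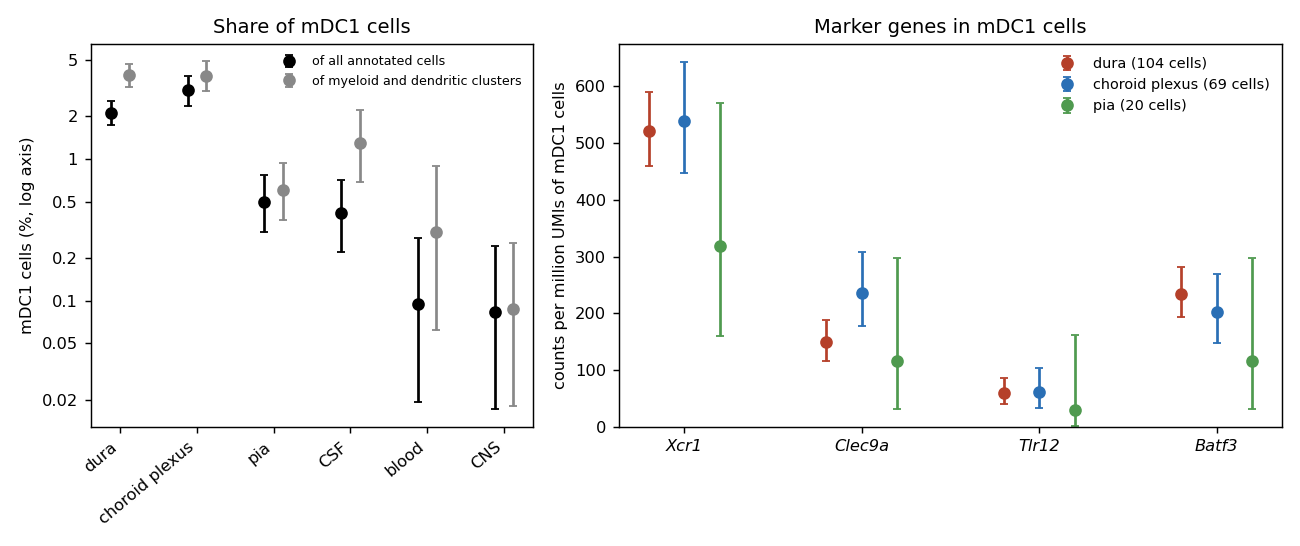
Left: percent of mDC1 cells in each rat library (log axis), among all annotated cells (black) and among myeloid and dendritic clusters (grey). Right: CPM (counts per 1000000 UMIs) of the 4 markers in the summed mDC1 cells of 3 tissues. Points are values and bars are 95% counting intervals. Dura and choroid plexus lie above the other tissues on the left, and the intervals of dura and choroid plexus overlap for each marker on the right.

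Marker levels were alike in dura and choroid plexus, with Clec9a the exception. As CPM (the UMIs of a gene as a part of all UMIs of the mDC1 cells of a tissue, scaled to counts per 1000000), Xcr1 stood at 522 in the dura (UMIs in 78 cells), 539 in the choroid plexus (48 cells) and 319 in the pia (9 cells). The ratio of dura to choroid plexus was 0.969 (0.778 to 1.21, exact conditional binomial interval). Clec9a was 1.59-fold higher in the choroid plexus (1.09 to 2.29), at 236 CPM against 149 CPM, with 116 CPM in the pia. Batf3 was 234 CPM in the dura, 201 CPM in the choroid plexus and 116 CPM in the pia. Tlr12 was 60.1, 61.3 and 29.0 CPM in that order, the last from 1 UMI.

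Slpi, a secreted inhibitor of neutrophil serine proteases, marked nearly every mDC1 cell. It was found in 103 of 104 dural cells (median 23 UMIs per cell, highest 241), all 69 choroid plexus cells (median 28, highest 154) and 15 of 20 pial cells (median 8, highest 55). Its summed level was 9288 CPM in the dura, 10803 CPM in the choroid plexus and 6902 CPM in the pia. In myeloid1 cells of the same libraries it was 131, 11.7 and 10.9 CPM. Slpi was also in all 13 CSF, all 3 blood and all 3 CNS cells of the cluster. Slpi and the other genes of this and the next 2 paragraphs that belong to no list were picked after their values were seen.

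Dural myeloid1 cells summed to 106030 CPM over the class II list, 29208 CPM over border macrophage genes and 22345 CPM over monocyte genes. Genes of type 2 conventional dendritic cells summed to 5785 CPM there. Other genes set the mDC1 cells apart from myeloid1 cells in the same way in dura, choroid plexus and pia. Klrc3, of the NK lectin-like receptor family, was 679, 377 and 754 CPM against 2.97, 1.30 and 2.43 CPM. Irf8, the factor the subset depends on, was 530, 591 and 551 CPM against 53.7, 80.8 and 36.5 CPM. Cadm1, an adhesion molecule that marks the subset across species, was 404, 342 and 319 CPM against 55.4, 78.2 and 78.5 CPM. Cst3, the cysteine protease inhibitor cystatin C, was 50342, 52830 and 40773 CPM against 15971, 14778 and 13469 CPM. Ctse, an endosomal aspartic protease, and Wdfy4, required for cross presentation, were higher too, at 522 CPM against 35.9 CPM and 164 CPM against 34.0 CPM in the dura.

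Macrophage genes were low. In the dura, Csf1r, the receptor for macrophage growth factor, was 22.8 CPM in mDC1 cells against 497 CPM in myeloid1. C1qa, a complement subunit, was 191 CPM against 3627 CPM, and Fcer1g, the common chain of activating Fc receptors, 180 CPM against 3430 CPM. Sirpa, the receptor that marks type 2 conventional dendritic cells and macrophages, was 6.21 CPM against 147 CPM, from 3 UMIs. The cells also differed from the 48 dural pDC. Siglech, a pDC lectin, had 0 UMIs in mDC1 cells against 2001 CPM, and Tcf4, the pDC transcription factor, 4.14 CPM against 518 CPM. Irf8, which both subsets use, was 530 CPM against 2198 CPM. Id2, an inhibitor of Tcf4-type factors, was 899 CPM in mDC1 cells and had 0 UMIs in the pDC.

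Genes were compared between tissues as ratios of summed UMIs, dura over choroid plexus first. Of 3072 genes with 20 or more UMIs over both tissues, 80 (2.6%) were at least 4-fold higher in the dura with an interval that leaves out 1, and 16 (0.521%) in the choroid plexus. At 2-fold the numbers were 252 (8.2%) and 94 (3.06%). The median log2 ratio of all these genes was 0.18 in mDC1 cells, 0.25 in myeloid1 cells and 0.28 in CD4 Tc cells of the same libraries.

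**Figure D2:**
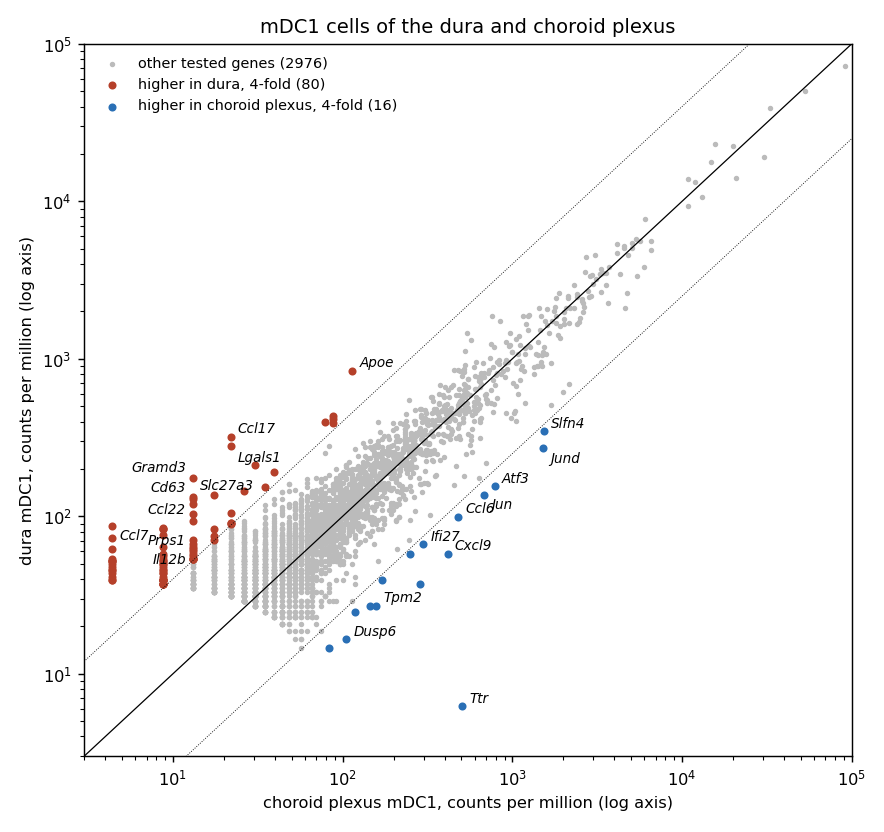
Each point is a gene, at its CPM in the summed choroid plexus mDC1 cells (x, log axis) and dural mDC1 cells (y, log axis). Coloured points are the 80 genes higher in dura (red) and 16 higher in choroid plexus (blue) at 4-fold, the solid line is equality, dotted lines are 4-fold, and a side at 0 is drawn at 3 counts. Ttr lies farthest below the line, and the genes above the upper dotted line are mostly at a few UMIs in the choroid plexus.

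Gramd3, which encodes a GRAM-domain protein, had 85 UMIs in 40 of 104 dural cells and 0 UMIs in the 69 choroid plexus cells. With the choroid plexus at a floor of 3 counts over the group, it was at least 13.4-fold higher in the dura. Here and below, a fold given as at least leaves out the counting error of the other tissue. In the pia 5 of 20 cells had it, with 10 UMIs. Thinned to 500 UMIs, the expected share of cells with Gramd3 was 7.46% in the dura and 13.1% in the pia, and CD4 Tc cells had 0 UMIs of it in all 3 libraries. In myeloid1 cells it was seen in 34 of 1238 dural and 4 of 992 choroid plexus cells. Dura and pia both held mDC1 cells with Gramd3, and 0 of 69 choroid plexus cells allows a share of cells with a UMI of up to 4.35% (3 counts of the total).

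Lgals1, a secreted galectin, had 135 UMIs in 48 dural cells and 5 UMIs in 4 choroid plexus cells, and was 12.8-fold higher in the dura (5.34 to 39.97). The log2 ratio of Lgals1 was 3.67 in mDC1 cells, 2.39 in myeloid1 and 0.10 in CD4 Tc, whose cells carried it in both libraries (21.8% and 27.6% of cells). Cd63, a tetraspanin of late endosomes, had 62 UMIs in 32 dural cells and 0 in the choroid plexus, where the fold was at least 9.78. In choroid plexus myeloid1 cells Cd63 was common, with UMIs in 594 of 992 cells, and its log2 ratio in myeloid1 was 0.43. CD4 Tc cells had Cd63 in 91 of 591 dural and 5 of 116 choroid plexus cells. Thinned to 500 UMIs, the expected share with Cd63 in the dura was 6.22% of CD4 Tc and 5.33% of mDC1 cells. Slc27a3, of the fatty acid transporter family, had 64 UMIs in 39 dural cells against 3 UMIs in the choroid plexus, a ratio of 10.1 (3.30 to 50.2). Prps1, an enzyme of nucleotide synthesis, had 30 UMIs in 20 dural cells and 0 in the choroid plexus (at least 4.73-fold higher).

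Genes with many UMIs on both sides also differed. Anxa1, annexin of the phospholipid-binding family, was 1862 CPM in dural mDC1 cells (103 of 104 cells) and 762 CPM in choroid plexus cells (54 of 69), a ratio of 2.44 (2.08 to 2.89), with 1450 CPM in the pia. Hs3st1, a heparan sulfate sulfotransferase, was 394 CPM against 87.6 CPM, 4.49-fold higher in the dura (2.83 to 7.52), with 145 CPM in the pia. Errfi1, a feedback inhibitor of EGF receptor signalling, was 398 CPM against 78.8 CPM (5.05-fold, 3.11 to 8.70). Lgals3, a galectin of phagocytes, was 431 CPM against 87.6 CPM (4.92-fold, 3.104 to 8.22). Klrc3 was 1.80-fold higher in the dura (1.42 to 2.31). Thinned to 500 UMIs, Anxa1 was expected in 12.3% of dural and 2.48% of choroid plexus myeloid1 cells. In CD4 Tc it was 9.61% and 3.89%. In myeloid1 cells Errfi1 was expected in 15.6% and 3.87%, and Lgals3 in 17.98% and 8.67%. Hs3st1 was 0.114% and 0.105% in myeloid1 and 4.85% and 2.89% in CD4 Tc. Lgals3 and Klrc3 went the other way in CD4 Tc (2.27% and 3.58%, 1.75% and 2.404%). Differences between clusters were not tested. Anxa1, Hs3st1, Errfi1 and Klrc3 were picked after their values were seen.

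Apoe, a lipid carrier that macrophages secrete, was 839 CPM in dural and 114 CPM in choroid plexus mDC1 cells, a ratio of 7.37 (4.95 to 11.4). The same gene was in 449 of 591 dural CD4 Tc cells and in 25 of 116 choroid plexus ones, which should not express it, and its log2 ratio was 2.56 in CD4 Tc, 2.88 in mDC1 and 0.44 in myeloid1. One dural mDC1 cell held 125 of the 405 Apoe UMIs. With every cell weighted equally the log2 ratio of Apoe in mDC1 cells was 1.61. The whole list of border macrophage genes summed to 1485 CPM in dural mDC1 cells (0 of 14 genes at 0) and 377 CPM in choroid plexus cells (4 at 0). In CD4 Tc cells it summed to 2292 and 952 CPM, and in myeloid1 to 29208 and 26089 CPM. Of its 6 measured members 4 were 2-fold higher in the dura (Apoe, C1qa, C1qb and C1qc), against 8.2% of all genes. The part of free RNA and of macrophage fragments in these ratios was not tested, and the levels in CD4 Tc cells of each library were above those in mDC1 cells.

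Ttr, the thyroxine carrier made by the choroid plexus epithelium, had 116 UMIs in choroid plexus mDC1 cells and 0 in dural ones, and was at least 81.7-fold higher in the choroid plexus. The log2 ratio of Ttr was -6.35 in mDC1, -11.30 in myeloid1 and -7.70 in CD4 Tc cells, so all 3 clusters of the library carried it. In the 13 CSF cells of the cluster it reached 9501 CPM. Ccl7, a monocyte chemoattractant, went the other way in the 3 clusters alike, at a log2 ratio of 4.31 in mDC1 cells (42 UMIs in 30 dural cells against 1 UMI, a ratio of 19.9, 3.38 to 803), 4.62 in myeloid1 and 4.45 in CD4 Tc.

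**Figure D3:**
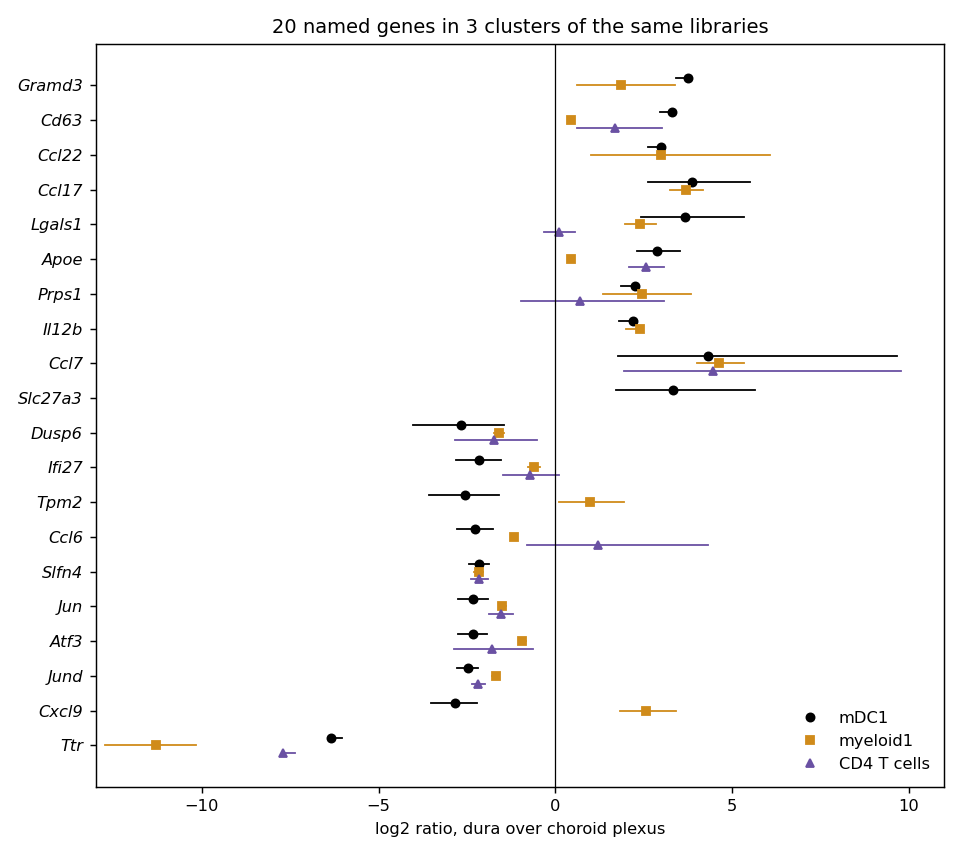
Log2 ratio, dura over choroid plexus, of the 20 genes named by rank, in mDC1 (black circles), myeloid1 (orange squares) and CD4 Tc cells (purple triangles) of the same 2 libraries. Bars are 95% counting intervals, a bar lacks its outer end where one side is at 0, and a cluster is left out for a gene with under 20 UMIs. Among others, Ccl7, Slfn4, Jund, Jun, Ttr, Apoe and Ifi27 fall on one side in all 3 clusters. Cxcl9 and Tpm2 lie on opposite sides in mDC1 and myeloid1.

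Among the other genes higher in the choroid plexus were several immediate early genes. Jund, a subunit of the transcription factor AP1, was 1520 CPM in the choroid plexus and 271 CPM in the dura (5.60-fold, 4.57 to 6.90), with 2146 CPM in the pia. Jun was 683 CPM against 137 CPM (5.00-fold, 3.72 to 6.77) and Atf3, a stress-induced factor, 788 CPM against 155 CPM (5.07-fold, 3.86 to 6.73). Dusp6, a MAP kinase phosphatase, had 24 UMIs against 8 (6.34-fold, 2.76 to 16.3). The log2 ratios of Jund were -2.49 in mDC1, -1.69 in myeloid1 and -2.18 in CD4 Tc cells, and those of Jun -2.32, -1.50 and -1.54. Slfn4, an interferon-induced gene of myeloid cells, was 1542 CPM against 346 CPM (4.46-fold, 3.70 to 5.39), with a log2 ratio of -2.16 in mDC1, -2.17 in myeloid1 and -2.15 in CD4 Tc.

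The dissociation stress list, which holds immediate early and heat shock genes, had 20 of 24 members measured. Of these 5 were 2-fold higher in the choroid plexus (Egr1, Jund, Atf3, Jun and Hspa1b), against 3.06% of all genes, and 1 in the dura (Junb). The list's median log2 ratio was -0.56 beside 0.18 over all genes. Junb was 1740 CPM in the dura and 845 CPM in the choroid plexus (2.06-fold, 1.76 to 2.42). Fos was 951 against 1484 CPM (1.56-fold higher in the choroid plexus, 1.35 to 1.80). The part of tissue handling in these differences was not tested.

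**Figure D4:**
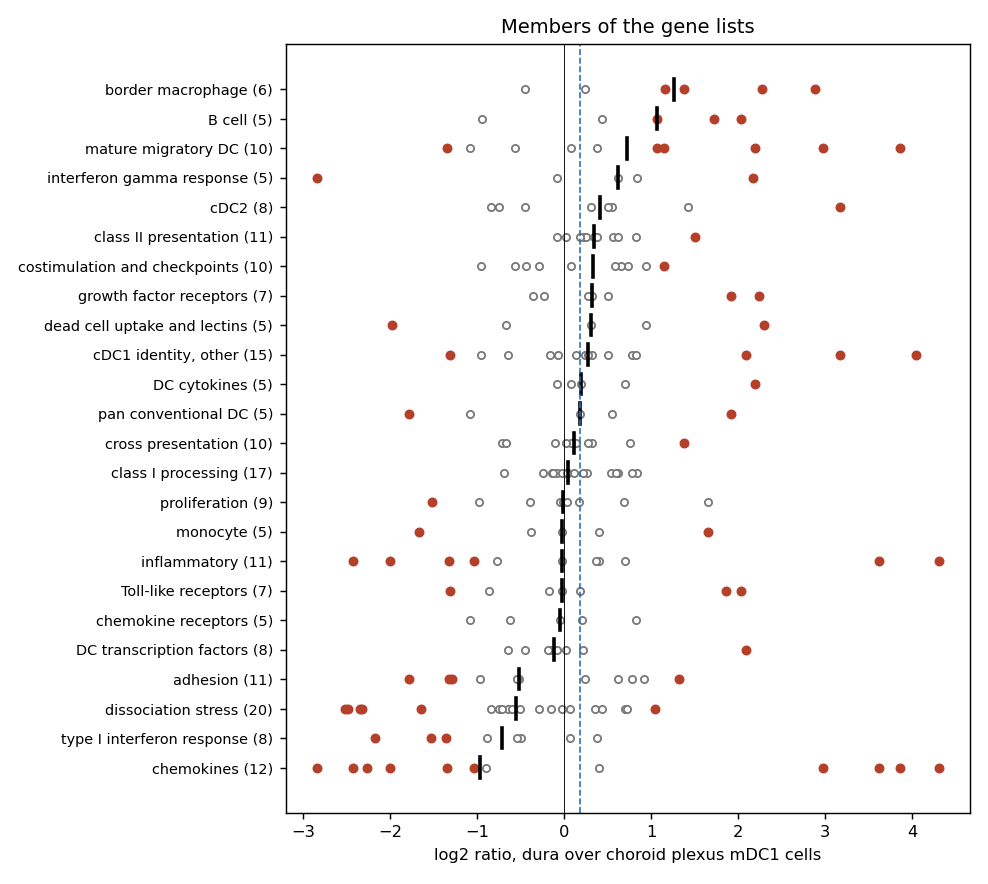
Log2 ratio, dura over choroid plexus, of the measured members of each gene list with 5 or more of them (number in brackets). Filled points are 2-fold with an interval that leaves out 1, open points are not, black bars are list medians and the dashed line is the median of all 3072 genes (0.18). Class I, costimulation, cross presentation and class II members crowd near the line, and chemokine members lie far out on both sides.

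Most genes of antigen presentation did not pass 2-fold between dura and choroid plexus. The same was true of most of the 3072 genes tested. Cd74, the class II invariant chain, was 39026 CPM in the dura, 33256 CPM in the choroid plexus and 41034 CPM in the pia. RT1-Da, a class II chain, was 23176, 15664 and 23605 CPM, and 1.48-fold higher in the dura than in the choroid plexus (1.42 to 1.54). Of 11 measured class II genes 10 had a ratio over 1 and 1 was 2-fold higher in the dura, against 8.2% of all genes. This was Lgmn, a lysosomal protease (74.6 against 26.3 CPM, 2.84-fold, 1.18 to 8.24). The median log2 ratio of the 11 class II genes was 0.34. Ctss, the protease that trims the invariant chain, was 845 CPM against 477 CPM (1.77-fold, 1.43 to 2.21). None of 17 measured class I processing genes passed 2-fold either way, against 8.2% and 3.06% of all genes, at a median of 0.05. B2m, the light chain of class I, was 1.62-fold higher in the choroid plexus (1.501 to 1.74), at 5448 against 3368 CPM. The class I and class II chains include near-identical paralogs, so their counts may be split between copies.

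Of 10 measured cross presentation genes 1 was 2-fold higher in the dura, against 8.2% of all genes, and the median was 0.11. This gene was the membrane fusion protein Stx4 (68.4 CPM in the dura, 26.3 CPM in the choroid plexus, 2.60-fold, 1.08 to 7.595). Wdfy4 was 164 and 131 CPM (ratio 1.25, 0.809 to 1.96). Rab43, which sorts cargo for cross presentation, was 43.5 and 39.4 CPM.

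Among 15 other measured cDC1 identity genes 3 were 2-fold higher in the dura and 1 in the choroid plexus (8.2% and 3.06% over all genes), at a median of 0.27. Irf8 was 1.11-fold higher in the choroid plexus with an interval across 1 (0.898 to 1.38). Cadm1 (ratio 1.18, 0.905 to 1.56) and Naaa, a lysosomal amidase (1.10, 0.846 to 1.43), also had intervals across 1. The 1 gene higher in the choroid plexus was Tlr3, the endosomal sensor of double-stranded RNA, at 267 CPM in 36 of 69 cells against 108 CPM in 33 of 104 (2.48-fold, 1.69 to 3.66). Thinned to 500 UMIs, the expected share of cells with Tlr3 was 11.9% in the choroid plexus, 5.06% in the dura and 3.54% in the pia. In myeloid1 cells it was 3.80%, 1.94% and 1.45% in that order. The 3 genes higher in the dura were Plet1, a membrane protein of epithelial progenitors and some dendritic cells (35 UMIs in 12 cells against 1 UMI, ratio 16.6, 2.78 to 672.3), Cd24 (19 UMIs in 4 cells against 1, ratio 8.99, 1.43 to 373.4) and Nfil3, a factor upstream of Zeb2 and Id2 in dendritic precursors (18 UMIs in 16 cells against 2, ratio 4.26, 1.02 to 37.8). Thinned to 500 UMIs, Plet1 was expected in 1.48% of dural and 0.0964% of choroid plexus myeloid1 cells. Of 8 measured genes of type 2 conventional dendritic cells 1 was 2-fold higher in the dura, against 8.2% of all genes. This was the lectin Clec4a3 (19 dural UMIs against 1).

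Id2, which keeps the conventional lineage, was higher in the choroid plexus (1401 against 899 CPM, 1.56-fold, 1.34 to 1.81). Flt3, the receptor for the main growth factor of dendritic cells, was 49.7 CPM in the dura (21 cells) and 13.1 CPM in the choroid plexus (3 cells), a ratio of 3.78 (1.15 to 19.6). Thinned to 500 UMIs, Flt3 was expected in 1.14% of dural and 0.221% of choroid plexus myeloid1 cells. Kit, the stem cell factor receptor, was 41.4 CPM against 8.76 CPM (4.73, 1.15 to 41.7). Csf2ra, a chain of the GM-CSF receptor, was 460 and 368 CPM (1.25, 0.968 to 1.63). Of the 7 measured growth factor receptors Flt3 and Kit were 2-fold higher in the dura, against 8.2% of all genes, and none in the choroid plexus.

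Integrins and other adhesion genes were mixed, with 3 of 11 measured members 2-fold higher in the choroid plexus (Itgax, Itgb2 and Icam1) and 1 in the dura (Itgb7), against 3.06% and 8.2% of all genes. Itgax, which encodes CD11c, had 13 UMIs in 11 choroid plexus cells and 8 UMIs in 8 dural cells (3.44-fold, 1.32 to 9.56). Itgb7, a partner chain of mucosal integrins, was 153 CPM in the dura against 61.3 CPM (2.50-fold, 1.40 to 4.79). Itgae, the CD103 chain that pairs with it, was 120 and 70.1 CPM with an interval across 1 (0.972 to 3.20). Axl, a receptor for dead cells, was 3.93-fold higher in the choroid plexus (1.98 to 8.13), at 114 against 29.0 CPM, and had 0 UMIs in the pia.

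Of 7 measured Toll-like receptor genes, Tlr10 and the adaptor Myd88 were 2-fold higher in the dura and Tlr3 in the choroid plexus (8.2% and 3.06% over all genes). Tlr10 had 26 UMIs in 21 dural cells and 3 UMIs in 3 choroid plexus cells (4.10-fold, 1.26 to 21.2). None of the 5 measured chemokine receptor genes, Xcr1 among them, passed 2-fold. Cxcr3, a receptor for interferon-induced chemokines, was 68.4 CPM in the dura and 105 CPM in the choroid plexus (interval across 1), against 1.98 CPM in dural myeloid1 cells. Ccr7, the receptor dendritic cells use to reach lymph nodes, had 0 UMIs in every mDC1 cell of the 6 tissues, but over all cells it was at most 1.91 CPM in any rat library. Zbtb46, a factor of conventional dendritic cells, likewise had 0 UMIs, with at most 0.436 CPM in any library, so neither zero is informative.

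Of 12 measured chemokine genes 10 passed 2-fold. In detail, 4 were 2-fold higher in the dura (Ccl7, Ccl17, Cxcl1 and Ccl22) and 6 in the choroid plexus (Cxcl9, Ccl4, Ccl6, Ccl3, Ccl5 and Ccl2), against 8.2% and 3.06% of all genes, at a median of -0.97. Summed over the list, mDC1 cells had 2277 CPM in the choroid plexus and 1388 CPM in the dura. The sums were 7838 and 6063 CPM in myeloid1, and 2055 and 1115 CPM in CD4 Tc. Thinned to 500 UMIs, Ccl6 was expected in 58.0% of choroid plexus and 29.7% of dural myeloid1 cells. In CD4 Tc it was 0.715% and 1.59%. In mDC1 cells Ccl6 was 477 CPM in the choroid plexus and 99.4 CPM in the dura (4.80-fold, 3.39 to 6.89). Ccl4 was 144.5 against 26.9 CPM (5.37-fold, 2.75 to 11.1) and Ccl3, another inflammatory chemokine, 74.4 against 18.6 CPM (3.99-fold, 1.68 to 10.2). Cxcl16, a membrane-bound chemokine, was 569 against 304 CPM (1.87-fold, 1.47 to 2.38).

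Several of these values rest on single cells. One choroid plexus cell held 11 of the 18 UMIs of Ccl5, against 15 UMIs in 14 dural cells, and 2 choroid plexus cells held 69.7% of the 33 UMIs of Ccl4. Ccl17, a ligand of Ccr4, had 154 UMIs in 8 dural cells against 5 UMIs in 4 choroid plexus cells (14.6-fold, 6.11 to 45.5), and 2 dural cells held 90.9% of the 154. These same 2 cells held all 50 UMIs of Ccl22, a second ligand of Ccr4, and all 29 UMIs of Il12b, a subunit of interleukin 12 and 23. Their UMI totals were 4116 and 6767, with 53 and 87 UMIs of Ccl17, 44 and 6 of Ccl22, and 17 and 12 of Il12b. They also had 56 and 70 UMIs of Slpi, and neither had a UMI of Xcr1 or Clec9a. At a floor of 3 counts, Ccl22 was at least 7.88-fold and Il12b at least 4.57-fold higher in the dura. Without the cell with the most UMIs of the gene in each tissue, 6 dural UMIs of Ccl22 and 12 of Il12b stood against 0, at which the floor of 3 counts leaves no difference for Ccl22 (log2 ratio -0.08) and a log2 ratio of 0.92 for Il12b.

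Cxcl9, a ligand of Cxcr3 induced by interferon gamma, was 416 CPM in the choroid plexus and 58.0 CPM in the dura (7.17-fold, 4.66 to 11.4). One choroid plexus cell held 71 of the 95 UMIs, and the others were spread over 10 cells. The 2 dural cells with Il12b held 11 and 16 of the 28 dural UMIs. Without the top cell of each tissue the log2 ratio of Cxcl9 went from -2.84 to -2.08.

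**Figure D5:**
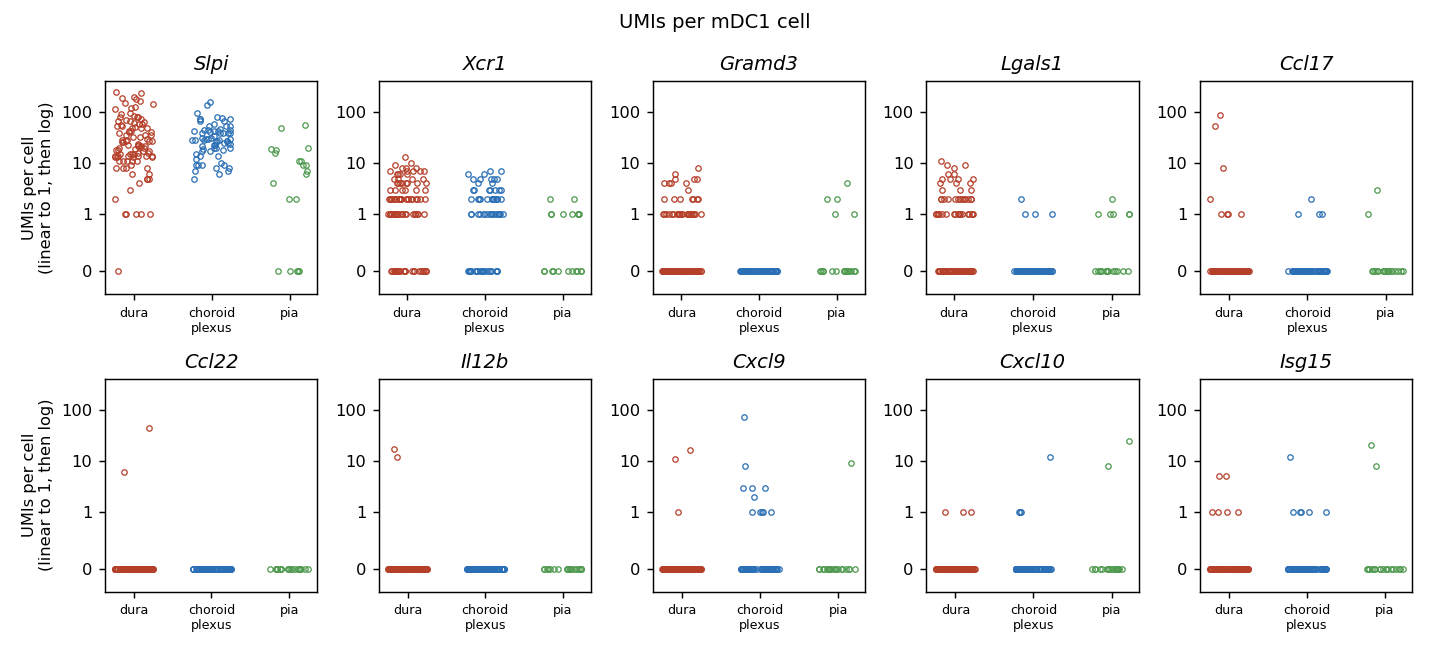
UMIs per mDC1 cell of 10 genes in the dura (104 cells), choroid plexus (69) and pia (20), 1 point per cell, sideways scatter random, y axis linear to 1 and logarithmic above. Slpi, Xcr1 and Lgals1, and in the dura Gramd3, are spread over many cells, whereas most UMIs of Ccl17, Ccl22, Il12b, Cxcl9, Cxcl10 and Isg15 sit in a few cells and the other cells have none or few.

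Of the mature dendritic cell list 10 of 24 genes were measured, of which 5 were 2-fold higher in the dura (Ccl17, Ccl22, Il12b, Cd86 and Cd200) and 1 in the choroid plexus (Ccl5), against 8.2% and 3.06% of all genes. The list's median log2 ratio was 0.72, and -0.13 in the cells with a marker UMI alone. Cd86, a ligand of CD28, was spread over 50 dural and 16 choroid plexus cells, at 174 against 78.8 CPM (2.21-fold, 1.32 to 3.90), with 232 CPM in the pia. Cd200 was 110 against 52.6 CPM (2.09-fold, 1.10 to 4.30). Cd83 was 445 and 420 CPM (ratio 1.06, 0.829 to 1.36) and Cd40 was 41.4 and 61.3 CPM. Of 10 measured costimulation and checkpoint genes, Cd86 was the 1 that passed 2-fold, against 8.2% of all genes higher in the dura. Il1b was 597 CPM in the dura, 368 CPM in the choroid plexus and 174 CPM in the pia. Il18, a cytokine of the same family, was 261, 228 and 174 CPM.

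Of 8 measured type I interferon response genes 3 were 2-fold higher in the choroid plexus (Ifi27, Ifitm3 and Isg15), against 3.06% of all genes, and 0 in the dura, at a median log2 ratio of -0.71. Summed over the list, mDC1 cells had 601 CPM in the dura and 1274 CPM in the choroid plexus. The other clusters of the same libraries also had more in the choroid plexus, at 1450 and 2853 CPM in myeloid1 and 1806 and 2918 CPM in CD4 Tc. Of 5 measured interferon gamma response genes 1 was 2-fold higher in the dura (Gbp4) and 1 in the choroid plexus (Cxcl9). Their median was 0.61, and the 2-fold shares over all genes were 8.2% and 3.06%. Ifi27 was 298 CPM against 66.3 CPM (4.49-fold, 2.91 to 7.07) and its log2 ratio was -2.17 in mDC1, -0.60 in myeloid1 and -0.73 in CD4 Tc cells. Ifitm3, a restriction factor of endosomes, was 455 CPM in 45 cells against 157 CPM in 43 cells (2.89-fold, 2.13 to 3.94). Isg15 was 74.4 against 29.0 CPM (2.57-fold, 1.19 to 5.63), with 12 of its 17 choroid plexus UMIs in the cell rich in Cxcl9. The differences between clusters were not tested.

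A few cells carried genes of dividing cells. UMIs of Mki67 or Top2a were seen in 6 of 104 dural cells (5.77%, 2.15% to 12.1%), 3 of 69 choroid plexus cells (4.35%, 0.906% to 12.2%) and 0 of 20 pial cells, which allows up to 15%. In myeloid1 cells the shares were 3.55%, 0.504% and 1.47%. Thinned to 500 UMIs, the expected shares of mDC1 cells were 1.40% in the dura and 1.36% in the choroid plexus. Those of myeloid1 cells were 0.958% and 0.224%. Of 9 measured proliferation genes none was 2-fold higher in the dura and 1 in the choroid plexus, against 8.2% and 3.06% of all genes. The 1 was the centromere protein Cenpf, with 12 of its 19 choroid plexus UMIs in 1 cell.

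The T cell list summed to 68.4, 35.03 and 29.0 CPM in dura, choroid plexus and pia, with 9, 9 and 13 of its 14 genes at 0, against 5104, 5363 and 4856 CPM in CD4 Tc cells. Cd79a and Cd79b, the signalling chains of the B cell receptor, had 26 UMIs in 7 and 21 UMIs in 8 dural cells and 0 UMIs in the choroid plexus and pia. The B cell list summed to 628, 499 and 435 CPM, with 6, 11 and 12 of 15 genes at 0, against 335, 218 and 181 CPM in myeloid1 and 167, 47.9 and 72.9 CPM in CD4 Tc. In the dura 55 of the 104 mDC1 cells had 2 or more UMIs of this list, and Ighm was in 69. Of the 5 measured B cell list members 3 were 2-fold higher in the dura (Cd79a, Cd79b and Ighm), against 8.2% of all genes. The NK cell list summed to 217, 250 and 261 CPM, with 27 of its 57 choroid plexus UMIs in 1 cell. Without cells with 2 or more UMIs of the defining B, T or NK markers, 98, 66 and 20 cells were left. Over the 3 tissue pairs, 89 gene ratios recomputed on these cells stayed within their counting interval and 1 left it, that of Cxcl10 in choroid plexus over pia (log2 ratio -6.07 against -3.82). Leaving out every cell with 2 or more UMIs over the whole B, T and NK lists and every doublet call left 27, 30 and 13 cells. Of the ratios that could still be computed 44 stayed within their interval, 14 left it and 1, of Cst3, changed direction.

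The pial cells could be compared only for abundant genes, with 34484 UMIs in all. Of 2517 genes with 20 or more UMIs over dura and pia, 11 were at least 4-fold higher in the dura (0.437%) and 23 in the pia (0.914%). Of 1350 genes of choroid plexus and pia, 12 were higher in the choroid plexus (0.889%) and 10 in the pia (0.741%). These splits depend on the scaling. With TMM factors the first became 49 and 6, and the second 43 and 4, since the median log2 ratio of all genes moved from near 0 to 0.45 and 0.50. Statements on the pia are about single genes, whose ratios depend on the scaling too, and the folds below use total UMIs. With TMM, 5 gene ratios over the 3 tissue pairs left their counting interval and 87 stayed within it. Among the 5 were the log2 ratios of dura to pia of Lyz2 (1.62 with TMM) and Jund (-2.54 with TMM).

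Cxcl10 and Isg15, both induced by interferons, had their highest summed level of the 3 tissues in the pia, through 2 of its 20 cells. Cxcl10, a ligand of Cxcr3, had 32 UMIs in 2 pial cells, 3 UMIs in 3 dural cells and 15 UMIs in 4 choroid plexus cells. It was 149-fold higher in the pia than in the dura (46.7 to 762). Isg15 had 28 UMIs in the same 2 pial cells, 14 UMIs in 6 dural cells and 17 in 6 choroid plexus cells (28.0-fold over the dura, 14.3 to 57.5). Without the top cell of each tissue, the log2 ratio of dura to pia went from -7.22 to -5.81 for Cxcl10 and from -4.81 to -3.64 for Isg15. One of the 2 cells had 24 UMIs of Cxcl10, 20 of Isg15 and 9 of Cxcl9, with 0 UMIs of Slpi and of the 4 markers among its 1570 UMIs. The other had 8 of Cxcl10, 8 of Isg15, 49 of Slpi and 1 of Clec9a.

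Other pial differences were found in more cells. Jund was 2146 CPM in 12 pial cells against 271 CPM in the dura (7.91-fold, 5.86 to 10.6), with a log2 ratio of dura to pia of -2.98 in mDC1, -2.30 in myeloid1 and -2.10 in CD4 Tc. Ccl4 had 15 UMIs in 7 pial cells and was 16.2-fold higher than in the dura (7.17 to 36.9). One pial cell held 8 of the 15 UMIs, and without the top cell of each tissue the log2 ratio of dura to pia for Ccl4 went from -4.01 to -3.16. Cfd, complement factor D, was 493 CPM in the pia, 145 CPM in the dura and 26.3 CPM in the choroid plexus. In the other direction, Tnfaip8, a regulator of phospholipid signalling and cell death, had 0 UMIs in the pia, against 117 UMIs in 64 dural cells and 56 UMIs in 37 choroid plexus cells (at least 2.79-fold and 2.82-fold higher). Gatm, the first enzyme of creatine synthesis, had 1 pial UMI against 109 in the dura (7.79-fold, 1.37 to 310.3) and 71 in the choroid plexus (10.7-fold, 1.86 to 429.4). Lyz2, a lysozyme of myeloid cells, was 3540 CPM in the dura and 1566 CPM in the pia (2.26-fold, 1.72 to 3.02), and Il1b was 3.43-fold higher in the dura (1.56 to 9.42). Slpi was 1.35-fold higher in the dura (1.18 to 1.54) and 1.57-fold higher in the choroid plexus (1.37 to 1.80) than in the pia. The second ratio left its counting interval in several settings. Its log2 value was 0.32 in cells with a marker UMI and 0.93 without the top cell of each tissue. It was 1.14 with TMM and 1.52 without the lymphocyte-marked cells and doublet calls.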

How the data were processed

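The rat matrix deposited by the authors gives raw UMI counts for each gene in each barcode of 6 libraries, and their cluster and tissue names come in separate tables. Counting used Cell Ranger 3.1.0 and Rnor_6.0, according to the submitters' processing notes, while the deposited matrix itself names 3.0.2 per the file headers. Barcodes without a cluster were left out. UMIs of mDC1 cells were summed per tissue. Shares carry exact Clopper-Pearson intervals, levels exact Poisson intervals and ratios exact conditional binomial intervals (95%). A side at 0 was set to 3 counts, and for a share of 0 the limit given is 3 counts of the total. Genes needed 20 UMIs over both sides. The members and the 32 gene lists were chosen with earlier results of these data known. Named genes were the 4 markers, dendritic cell lists, the 4 most abundant and up to 2 most different members of other lists, and, in each pair, the 10 genes each way whose interval stayed farthest from 1, without ribosomal and mitochondrial genes. Genes outside this rule are said to be picked afterwards. Shares of cells with a UMI were also computed as expectations after thinning each cell to 500 UMIs, leaving out 4 choroid plexus and 1 pial mDC1 cell with fewer. Scrublet (scanpy 1.11.5) was run per library and its calls were kept in. It marked 0.552% of choroid plexus, 0.0926% of pial and 0% of CNS barcodes. With so few calls it cannot show that doublets are absent there, and the reason was not tested. As a scaling alternative only, TMM was taken from edgeR 4.0.16 (R 4.3.3). The rest ran in Python 3.11.15 (numpy 2.4.6, pandas 2.3.3, scipy 1.17.1, matplotlib 3.10.9). The ratio step was tested on simulated counts. No p-value was computed.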

Additional observations from a re-analysis of the deposited data

How the results depend on the processing

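No paired analysis was possible because each tissue is 1 library and no test was made. Where values below moved, the cause was not tested. The mDC1 share of the dura was 3.87% of myeloid and dendritic clusters and 2.68% of cells with 1000 or more UMIs, and that of the choroid plexus 3.85% of myeloid and dendritic clusters. The pial share was 0.978% of cells with 1000 or more UMIs and 0.272% counting only cells with a marker UMI. The CSF share was 0.173% of all barcodes and 1.29% of myeloid and dendritic clusters, and the blood share 0.303% of the latter. Genes 4-fold higher in the dura than in the choroid plexus numbered 80, but 13 without cells with 2 or more UMIs over the B, T or NK lists or called doublets (27 dural, 30 choroid plexus and 13 pial cells left), 18 at 50 or more UMIs and 252 at 2-fold. Those higher in the choroid plexus numbered 16, 38 at 10 or more UMIs and 94 at 2-fold. For dura over pia, 11 higher in the dura became 6 without the lymphocyte-marked cells, 5 with marker-positive cells alone, 49 with TMM, 31 without the top cell of each gene and 33 at 2-fold. The 23 higher in the pia became 13, 6 with TMM, 51 at 10 UMIs, 9 at 50 UMIs, 11 without the top cell and 73 at 2-fold. For choroid plexus over pia, 12 became 43 with TMM, 22 without the top cell and 32 at 2-fold, and 10 became 4 with TMM, 35 at 10 UMIs, 0 at 50 UMIs and 47 at 2-fold. The median of the chemokine list went from -0.97 to -2.459 without the lymphocyte-marked cells. The log2 ratio of Cst3 (dura over choroid plexus) turned to 0.11 without the lymphocyte-marked cells, and that of Csnk1a1 (dura over pia) to -0.0284 with marker-positive cells alone. That of Ccl22 became -0.0801 without its top cell, a value set by the floor, since 6 dural UMIs stood against 0. Near 0, the sign also changed for Tlr12 (to 0.0898 without the top cell). List medians of dura over choroid plexus that changed sign were the mature dendritic list (0.72 to -0.13 with marker-positive cells), class I (0.05 to -0.0054 with TMM), Toll-like receptors (-0.03 to 0.0178 with marker-positive cells and 0.0898 without the top cell) and proliferation (-0.01 to 0.115 without dividing cells, 0.277 with cells weighted equally and 0.198 without the top cell). Without the lymphocyte-marked cells, 14 other gene ratios left their interval, among them Atf3 (-3.77 for -2.34), Cd86 (2.17 for 1.14), Gramd3 (2.52 for 3.74, with the choroid plexus at the floor) and Slpi in choroid plexus over pia (1.52 for 0.65). The share with any marker was 58.5% in the dura and 64.1% in the choroid plexus thinned to 1000 UMIs, and 93.3%, 89.9% and 55% (pia) with no thinning. Mki67 or Top2a was in 5.77% of dural cells with no thinning. The alternative without the top cell of each gene, and one removing only cells with the defining lymphocyte markers, were chosen after seeing the data.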

Other observations

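In CSF, blood and CNS the cluster held 13, 3 and 3 cells, given here as values only. Xcr1 was 652 CPM in CSF, 810 CPM in blood and 1305 CPM in the CNS, the last from 15 UMIs in 2 cells. Irf8 was found in all 13 CSF, all 3 blood and all 3 CNS cells. Batf3 had 0 UMIs in the 13 CSF cells, but over all annotated CSF cells it was only 0.145 CPM, against 19.0 CPM in the dura. Ctss also had 0 UMIs in CSF mDC1 cells and was 36.2 CPM over the whole CSF library against 1711 CPM in the dura, and Hspa8 was 687 CPM in CSF mDC1 cells and 552 CPM in that library against 3.37 CPM in the dura. These 3 genes thus differ across the whole CSF library, so CSF levels were not compared with those of other tissues.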
